A study of Gallus gallus with 18 samples.

Results

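The genes described here are 9 enzymes and droplet proteins of glycerolipid and ceramide metabolism, measured in the liver of broiler chickens. They are GPAM, AGPAT2, AGPAT3, LPIN1, LPIN2, PLIN2, PNPLA2, CDS1 and CERS6, out of 11528 genes with a probe set on the array. They were taken by gene symbol from the platform annotation, and all 9 were found, on 10 probe sets. AGPAT3 alone had a second probe set, and the brighter of the pair stood for the gene. No measured value entered the choice of probe sets other than brightness, but the genes themselves were picked with earlier results of these data known.

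Male Cobb 500 broilers were fed for 35 d on diets that held 0, 7.5 or 15% of a partly defatted meal made from larvae of Hermetia illucens, the black soldier fly; the labels name these groups HI0, HI7.5 and HI15. The meal amounted to 0, 75 and 150 g per kg of diet and took the place of soybean meal, soybean oil and wheat, with synthetic amino acids added to all diets to meet recommended levels. The birds lived in cages of 4 with free access to feed and water, and the labels used here do not give the time since the last meal or the cage of a sample. Liver RNA of 6 samples per diet was hybridised to 18 single-colour Affymetrix arrays, and the values below are log2 signals. Whether each array stands for a separate bird is not stated, so every p-value refers to the spread among these samples, part of which may be technical.

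In birds the liver is the main site of fatty acid and triglyceride synthesis. Triglyceride is built by adding acyl chains to glycerol 3-phosphate, removing the phosphate to give diacylglycerol and adding a last acyl chain; the product is stored in droplets, exported in lipoproteins or cleaved again by lipases. The intermediate phosphatidate can instead be turned into CDP-diacylglycerol, the precursor of phosphatidylinositol and cardiolipin. Ceramide, the base of the sphingolipids, is made by joining an acyl chain to a sphingoid base.

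The arrays showed a liver profile. The 9 measured hepatocyte markers of 10 listed, among them albumin, were brighter than at least 98.0% of genes, and their mean was between 13.4 and 13.5 on every array. Array medians lay between 7.23 and 7.31, and arrays correlated with each other at 0.966 to 0.990. CDS1 and CERS6 lay below every array median, and the table holds no background value against which a dim probe set could be judged. The mean of the 6 measured stellate and fibroblast markers of 9 lay between 8.23 and 8.96 in HI0, between 8.13 and 8.70 in HI7.5 and between 8.44 and 9.14 in HI15. The mean of 4 measured red cell markers of 7 lay between 7.66 and 8.21 in HI0. It lay between 7.43 and 8.77 in HI7.5 and between 7.36 and 9.26 in HI15. In whole liver, fewer cells of a type and less RNA per cell cannot be told apart.

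The comparison of HI15 with HI0 addresses the effect of the higher inclusion level. Of the 9 genes, 4 lay above 0 and 5 below, with a median difference of -0.04 beside 0.01 for all 11528 genes. With limma, 0 of 9 passed at an adjusted p under 0.05, as did 0% of the 18226 probe sets. At an unadjusted p under 0.05 there were 2 of 9, CERS6 and CDS1, both higher in HI15, beside 3.14% of all probe sets. The ranges of the diets overlapped for every member, beside 0.115% of probe sets whose ranges did not. Because the members were chosen with earlier results known, these counts are a description.

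**Figure D1:**
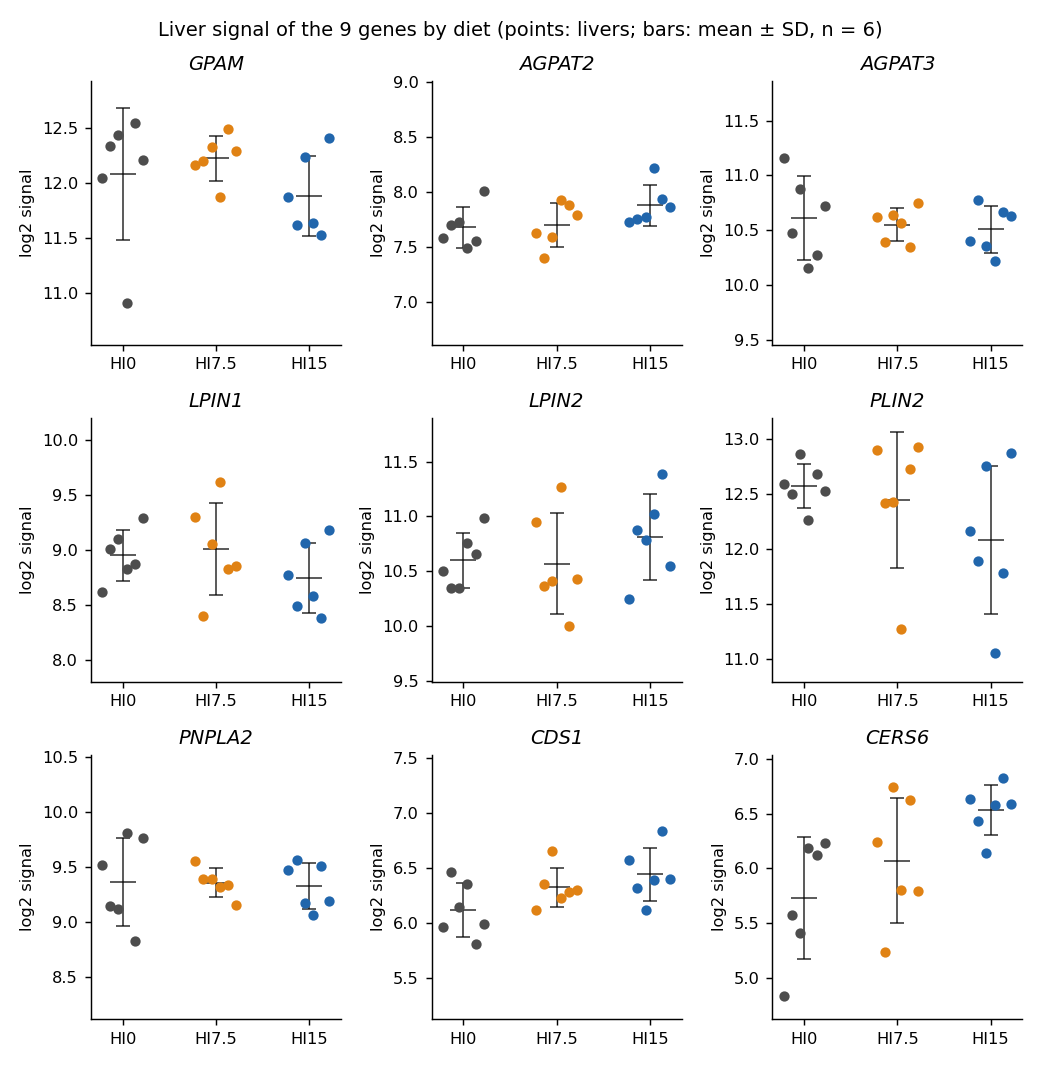
Log2 signal of each of the 9 genes (y axis, the same span of 2.4 log2 units in each panel) in the livers of the 3 diets (x axis). Points are single livers and bars are the mean ± SD of 6; CERS6 is scattered in HI0 and HI7.5 and narrow and high in HI15, and PLIN2 and GPAM have single low livers.

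GPAM, the mitochondrial glycerol-3-phosphate acyltransferase that starts the pathway, ran from 10.9 over 12.3 to 12.6 in HI0, from 11.9 over 12.2 to 12.5 in HI7.5 and from 11.5 over 11.8 to 12.4 in HI15. HI15 minus HI0 was -0.20 ± 0.22 (SE; exact permutation p = 0.530, adjusted limma p of 0.999). HI0 replicate 4 at 10.9 was the lowest of all 18 livers; without it the difference was -0.43, the only omission in which the unadjusted limma p fell under 0.05. HI15 minus HI7.5 was -0.34 ± 0.22 (exact permutation p = 0.0779), and 3 of 6 HI15 livers lay below the lowest HI7.5 liver.

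AGPAT2 and AGPAT3 add the next acyl chain and form phosphatidate. AGPAT2 ran from 7.49 over a median of 7.64 to 8.01 in HI0, from 7.40 over 7.71 to 7.93 in HI7.5 and from 7.73 over 7.82 to 8.22 in HI15. All 6 HI15 livers lay above the HI0 mean of 7.68, and 1 lay above the highest HI0 liver. The difference was 0.20 ± 0.11 (exact permutation p = 0.0952, adjusted limma p of 0.999). It was 0.13 without HI15 replicate 4 and 0.27 without HI0 replicate 6. In 1 of 12 omissions of a liver the unadjusted limma p fell under 0.05.

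AGPAT3 lay between 10.2 and 11.2 over all livers, with a median of 10.6 in HI0, 10.6 in HI7.5 and 10.52 in HI15. HI15 minus HI0 was -0.10 ± 0.15 by the brighter probe set and -0.13 ± 0.12 by the dimmer, whose values ran from 5.74 to 6.78. The spread of the dimmer probe set was 1.04 in HI0 and 0.21 in HI15. Without HI0 replicate 1, the highest of the 18 livers on both probe sets, the brighter gave 0.01.

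LPIN1 and LPIN2 are lipins, which remove the phosphate of phosphatidate to give diacylglycerol. In mice LPIN1 also acts as a partner of nuclear receptors in fasting liver. LPIN1 ran from 8.62 over 8.94 to 9.29 in HI0, from 8.40 over 8.95 to 9.62 in HI7.5 and from 8.38 over 8.68 to 9.18 in HI15. LPIN2 ran from 10.4 over 10.6 to 11.0 in HI0, from 10.0 over 10.4 to 11.3 in HI7.5 and from 10.3 over 10.8 to 11.4 in HI15. The means of the lipins differed in opposite directions between HI15 and HI0, LPIN1 by -0.21 ± 0.18 (exact permutation p = 0.223) and LPIN2 by 0.21 ± 0.20 (exact permutation p = 0.294), each with an adjusted limma p of 0.999. In HI15 3 livers lay below the lowest HI0 liver for LPIN1. For LPIN2 2 lay above the highest HI0 liver and 1 below the lowest.

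PLIN2, the protein that coats lipid droplets in liver, had a lower mean in HI15 but overlapping values. It ran from 12.3 over a median of 12.6 to 12.9 in HI0. In HI7.5 it ran from 11.3 over 12.6 to 12.9, and in HI15 from 11.1 over 12.0 to 12.9. In HI15 4 of 6 livers lay below the lowest HI0 liver, while 1 lay above the highest. HI15 minus HI0 was -0.49 ± 0.28 (exact permutation p = 0.121, adjusted limma p of 0.999), with a 95% interval from -1.06 to 0.09. Without HI15 replicate 4 it was -0.28, and without HI15 replicate 6 it was -0.64. In 2 of 12 omissions of a liver the unadjusted limma p fell under 0.05. HI7.5 minus HI0 was -0.12 ± 0.28, and it became 0.11 without HI7.5 replicate 4.

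The lipase PNPLA2, known as adipose triglyceride lipase, which releases fatty acids from droplets, had nearly equal means of 9.36, 9.36 and 9.33 in HI0, HI7.5 and HI15. Its SD was 0.40, 0.13 and 0.21 in that order, and its values ran from 8.82 to 9.81 in HI0 alone. HI15 minus HI0 was -0.04 ± 0.15 (exact permutation p = 0.890), and the 95% interval held folds from 0.789 to 1.21. Its sign turned in some omissions of a liver and with array weights.

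CERS6, a ceramide synthase that prefers palmitoyl-CoA as its acyl donor, differed most between HI15 and HI0 among the 9. Its log2 signal ran from 4.84 over a median of 5.85 to 6.23 in HI0. In HI7.5 it ran from 5.24 over 6.02 to 6.74, and in HI15 from 6.14 over 6.59 to 6.82. In HI15 5 of 6 livers lay above the highest HI0 liver, and the 6 HI15 livers lay within 0.68 of each other, against 1.39 in HI0. The mean was 6.53 ± 0.23 (SD, n = 6) in HI15 and 5.73 ± 0.55 (n = 6) in HI0.

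The difference of CERS6 was 0.80 ± 0.25, a 1.75-fold higher signal with a 95% interval of 1.22 to 2.49. Its p ranked 30 among the 18226 probe sets, and its adjusted limma p was 0.999. The exact permutation test of the 12 values gave p = 0.00649 (two-sided), where 0.00216 is the smallest this design allows. Leaving out each liver in turn took the difference to between 0.63, without HI0 replicate 1, and 0.90, without HI0 replicate 6. HI7.5 lay between the other diets. HI7.5 minus HI0 was 0.34 ± 0.25 (exact permutation p = 0.303) and HI15 minus HI7.5 was 0.46 ± 0.25 (exact permutation p = 0.0996), each with an adjusted limma p of 0.999.

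CDS1, which turns phosphatidate into CDP-diacylglycerol, was the other gene at an unadjusted p under 0.05. It ran from 5.81 over a median of 6.07 to 6.46 in HI0, from 6.12 over 6.29 to 6.65 in HI7.5 and from 6.12 over 6.40 to 6.84 in HI15. All 6 HI15 livers and all 6 HI7.5 livers lay above the HI0 mean of 6.12, but only 2 and 1 of them above the highest HI0 liver. HI15 minus HI0 was 0.32 ± 0.13 (exact permutation p = 0.0498, adjusted limma p of 0.999). In 10 of 12 omissions of a liver the unadjusted limma p stayed under 0.05, and the lowest difference was 0.24, without HI15 replicate 5. HI7.5 minus HI0 was 0.20 ± 0.13 (exact permutation p = 0.139, adjusted limma p of 0.999).

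The means of CERS6 and CDS1 followed the order of the inclusion levels, as did those of AGPAT2 upwards and of AGPAT3, PLIN2 and PNPLA2 downwards, 6 of the 9 members in all. The share of all genes with means in such an order was not counted, so this count is a description. For AGPAT2, AGPAT3, PLIN2 and PNPLA2 the sign of HI7.5 minus HI0 turned in omissions of a liver. For AGPAT3 and PNPLA2 the sign of HI15 minus HI7.5 turned as well. Per 10 percentage points of meal the slope was 0.54 ± 0.16 for CERS6 and 0.21 ± 0.08 for CDS1, with an adjusted limma p of 0.999 for each. At an unadjusted p under 0.05 the slope counted 2 of 9 members beside 3.25% of all probe sets, and at an adjusted p under 0.05 it counted 0 of 9 beside 0%. The F test of any difference among the diets counted 1 of 9, CERS6 (adjusted limma p of 1.00), beside 2.87%, and 0 of 9 beside 0% after adjustment. The stellate and fibroblast markers given above were also higher in HI15 than in HI0, 6 of 6 by 0.12 to 0.40 with a median of 0.23. In HI7.5 against HI0 only 2 of 6 lay above 0, with differences from -0.22 to 0.09. At an unadjusted limma p under 0.05 there was 1 of 6, PDGFRA, in HI15 against HI0, beside 3.14% of all probe sets. In HI15 against HI7.5 there were 3 of 6, LRAT, RGS5 and LUM, beside 3.16%, and in HI7.5 against HI0 0 of 6. After adjustment 0 were called. The 4 red cell markers had a median difference of 0.33 between HI15 and HI0, with 0 at an unadjusted p under 0.05. The part of the markers in the member differences was not tested.

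**Figure D2:**
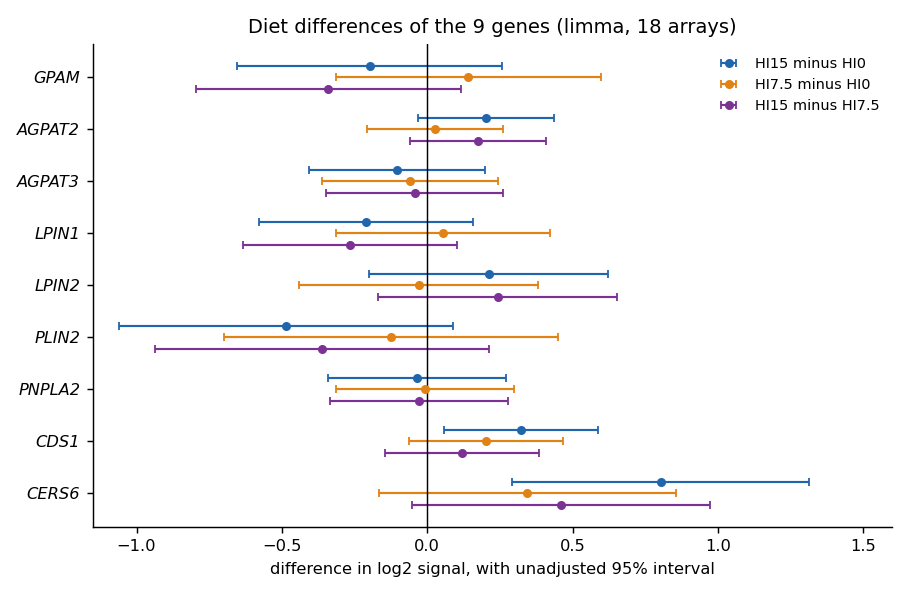
Differences in log2 signal between diets (x axis) for the 9 genes (y axis), with unadjusted 95% intervals from limma on 18 arrays. Only the HI15 minus HI0 intervals of CERS6 and CDS1 leave out 0, and neither gene passed after adjustment.

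The lower inclusion level and the step between the levels gave no member at an unadjusted p under 0.05 with the design used here. In HI15 against HI7.5, CERS6 passed that threshold with array weights (0.60) and in the fit of the 2 groups alone, as did GPAM in that fit and without the livers numbered 22 to 24; their adjusted limma p lay between 0.999 and 1.00. In HI7.5 against HI0 this was 0 of 9 beside 3.10% of probe sets, and 0 of 9 beside 0% after adjustment, with 5 members above 0 and 4 below. In HI15 against HI7.5 it was 0 of 9 beside 3.16%, and 0 of 9 beside 0% after adjustment, with 4 above and 5 below. With 1 liver left out, CERS6 passed the unadjusted threshold there in 3 of 12 omissions, and PLIN2 and LPIN1 in 1 of 12 each. In HI7.5 against HI0, CERS6 and CDS1 passed it in 1 of 12 omissions each. No probe set was called after adjustment in these omissions. No member had diets that did not overlap, beside 0.0988% and 0.0658% of probe sets. The 3 comparisons share samples and are not independent of each other. For the median member the 95% interval reached 0.37 log2 units to either side of the difference.

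The other genes of these pathways were read from a list of 106 symbols, older synonyms included, of which 64 were measured. In HI15 against HI0 41 of the 64 lay above 0 and 23 below (median 0.03), beside 51.8% of all 11528 genes above 0. None of the 64 passed limma's test after adjustment, and 0 had an unadjusted p under 0.05 beside 3.14% of all probe sets. The triglyceride and droplet genes had 9 of 16 above 0, the phospholipid genes 17 of 22 and the sphingolipid genes 15 of 26.

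Among the triglyceride and droplet genes the smallest p in HI15 against HI0 belonged to HSD17B11, a dehydrogenase found on lipid droplets, at -0.24 ± 0.13 (SE). MGLL, which cleaves monoacylglycerol, was at 0.14 ± 0.09 with 6 of 6 HI15 livers above the HI0 mean, and GPAT2 was at -0.18 ± 0.14. Among the phospholipid genes, CHKA, choline kinase, was at -0.57 ± 0.31, and PCYT2, which activates phosphoethanolamine, at -0.16 ± 0.09. LPCAT2, a lysophosphatidylcholine acyltransferase, was at 0.18 ± 0.11.

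Among the sphingolipid genes ASAH1, acid ceramidase, which breaks ceramide down, was at 0.19 ± 0.11, with values of 9.56 to 9.74 in HI0 and 9.66 to 9.99 in HI15. ORMDL3, an inhibitor of the first enzyme of sphingolipid synthesis, was at 0.24 ± 0.14, and ASAH2, a neutral ceramidase, at -0.15 ± 0.10. For ASAH1 and ORMDL3 6 of 6 HI15 livers lay above the HI0 mean. Each of these genes had an adjusted limma p of 0.999.

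In the other comparisons 0 of the 64 passed after adjustment. In HI7.5 against HI0 0 of 64 had an unadjusted p under 0.05; the smallest of each group were ASAH1 at 0.22 ± 0.11, PLIN3, another droplet coat protein, at 0.17 ± 0.09, and CHPT1, a cholinephosphotransferase, at -0.18 ± 0.12. In HI15 against HI7.5 1 was higher and 1 lower at an unadjusted p under 0.05, a share near the 3.16% of all probe sets. They were LPCAT2 at 0.30 ± 0.11, with ranges of 7.03 to 7.44 in HI15 and 6.78 to 7.08 in HI7.5, and CHKA at -0.71 ± 0.31, which was named here after its value was seen. HSD17B11 was at -0.28 ± 0.13 and KDSR, which reduces ketosphinganine, at 0.17 ± 0.08.

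Samples of the same diet differed widely in some of these genes, and part of this spread may be technical. The SD within diets was 0.54 for PLIN2, 0.48 for CERS6 and 0.42 for GPAM, above that of 98.6%, 97.7% and 96.3% of the 11528 genes, whose median was 0.21. It was 0.38 for LPIN2 and 0.33 for LPIN1, 0.27 for PNPLA2 and AGPAT3, 0.23 for CDS1 and 0.19 for AGPAT2, which 41.4% of genes lay below. Over all 18 livers the signal of CERS6 spanned 3.94-fold, PLIN2 3.68-fold and GPAM 3.12-fold, against 1.77-fold for AGPAT2.

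The lowest livers of PLIN2 shared a range of sample titles. The last numbers of the titles, whose meaning the labels do not state, fall into runs of 6 that hold 1 liver of each diet. The livers numbered 22, 23 and 24 had the lowest PLIN2 of their diets, at 12.26 in HI0, 11.27 in HI7.5 and 11.05 in HI15, which is 0.31, 1.18 and 1.03 below the diet means. For GPAM the same livers lay at 10.91, 11.87 and 11.64, the lowest of HI0 and of HI7.5, while 2 other HI15 livers were lower than 11.64, at 11.53 and 11.62. An F test of the run with diet in the model, added after these values were seen, placed PLIN2 at rank 33 and GPAM at rank 355 of 18226 probe sets. Both had an unadjusted p under 0.05, as did 2.62% of all probe sets, and an adjusted limma p of 1.00, with 0 probe sets called.

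**Figure D3:**
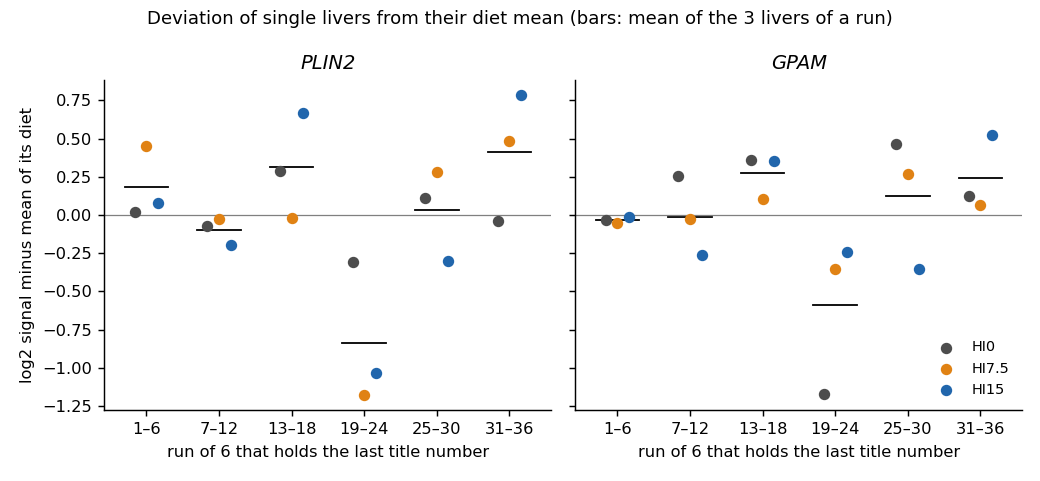
Log2 signal of PLIN2 and GPAM in each liver minus the mean of its diet (y axis), by the run of 6 that holds the last number of its title (x axis). Points are single livers coloured by diet and bars the mean of the 3 livers of a run; the run from 19 to 24 lies lowest, at -0.84 for PLIN2 and -0.59 for GPAM.

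Which members varied together between livers was asked after the diet mean had been subtracted, over all 36 pairs of members. Permutation tests within diets called 1 pair after adjustment. How many pairs of other genes would pass was not counted, so this count is a description. The median size of Pearson's r over the pairs was 0.21, beside 0.26 for pairs of genes in general. The called pair was GPAM and PLIN2 (r = 0.60, permutation p = 0.00032, adjusted p = 0.0115; Spearman's rho = 0.73, p = 0.00096, adjusted p = 0.0346). Within the diets r was 0.83 in HI0, 0.78 in HI7.5 and 0.87 in HI15, and all 3 were positive. Of all genes, 2.27% were at least as strongly correlated with GPAM as PLIN2 was.

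Without the 2 livers farthest from the median of GPAM, HI0 replicate 4 and HI15 replicate 6, r was 0.72 (adjusted permutation p = 0.166). Without the livers numbered 22, 23 and 24 it was 0.79 (adjusted permutation p = 0.235). With the run of title numbers subtracted as well, r was 0.01 (permutation p = 0.963). In the run from 19 to 24 the liver with the lowest GPAM, of HI0, had the smallest deviation of PLIN2. That run added -0.46 to the sum of products of the deviations, while 4 of 6 runs added between 0.03 and 0.22 and the remaining run -0.01. The call was also lost without HI0 replicate 4 (r = 0.77, adjusted p = 0.0648) and without HI7.5 replicate 4 (r = 0.59, adjusted p = 0.0914). GPAM was also opposed to PNPLA2 at r = -0.63 and to LPIN2 at r = -0.47, and neither passed adjustment (0.266 for each). Of all genes, 1.51% were at least as strongly correlated with GPAM as PNPLA2 was, a smaller share than for the called pair.

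Feed intake before sampling is not recorded in the labels, so the 9 genes were set against genes known for their response to feeding. PDK4, PPARGC1A and CPT1A are known to be higher in fasting liver, and FASN and THRSP belong to fatty acid synthesis after a meal; SCD of the same list was not measured. Of 45 pairs, 6 passed the permutation test of Pearson's r after adjustment, 3 with a positive and 3 with a negative r. By Spearman's rho 9 passed. Of all genes, 3.86% were at least as strongly correlated with PNPLA2 as CPT1A was, and 1.19% as THRSP was. This share was 0.252% for GPAM with FASN, 0.130% for PLIN2 with PPARGC1A and 0.0781% for LPIN2 with PPARGC1A. How many pairs of other genes would pass was not counted, so the counts are a description. The median size of Pearson's r over the 45 pairs was 0.27, beside 0.26 for pairs of genes in general.

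PLIN2 was opposed to PDK4, a kinase that blocks glucose oxidation (r = -0.81, permutation p = 0.00073, adjusted p = 0.0129; rho = -0.84, p = 0.00018, adjusted p = 0.0081). The livers with the lowest PLIN2 of HI7.5 and HI15 had the highest PDK4 of their diets, at 8.71 and 9.15. The HI15 liver with the highest PLIN2 and the HI7.5 liver with the next to highest had the lowest PDK4 of their diets, at 7.04 and 6.53. Within diets r was -0.67 in HI0, -0.79 in HI7.5 and -0.90 in HI15. Of all genes, 0.0954% were at least as strongly correlated with PLIN2, in either direction.

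PLIN2 was also opposed to PPARGC1A, a coactivator of fasting metabolism (r = -0.80, permutation p = 0.00115, adjusted p = 0.0129; rho = -0.72, p = 0.00293, adjusted p = 0.0220). Without HI7.5 replicate 4 and HI15 replicate 4, the livers farthest from the median of PLIN2, r was -0.73 with PDK4 (permutation p = 0.00259) and -0.49 with PPARGC1A (permutation p = 0.0989). By Pearson's r the relation with PPARGC1A was weaker without those 2 livers. Their omission also narrows the range of PLIN2, so it cannot show what the relation rested on. With all livers, r within diets was -0.59 in HI0, -0.82 in HI7.5 and -0.85 in HI15. After adjustment none of the 6 pairs with feeding-state genes was called without the 2 livers farthest from the median of its member, with adjusted p-values from 0.0583 to 0.247. Without HI7.5 replicate 4 alone, r with PPARGC1A was -0.69 and the adjusted p 0.0845. With CPT1A, the remaining fasting gene, r of PLIN2 was -0.05 (permutation p = 0.842). It was 0.26 with FASN and 0.26 with THRSP, and none of these pairs was called. Without the same 2 livers, HI7.5 replicate 4 and HI15 replicate 4, r of PLIN2 was 0.67 with FASN (permutation p = 0.0104). It was then 0.59 with THRSP (permutation p = 0.0720) and -0.22 with CPT1A (permutation p = 0.339), and none was called after adjustment.

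LPIN2 went with PPARGC1A (r = 0.76, permutation p = 0.00105, adjusted p = 0.0129; rho = 0.73, p = 0.00214, adjusted p = 0.0217). Within diets r was 0.35 in HI0, 0.88 in HI7.5 and 0.80 in HI15. Without the 2 livers farthest from the median of LPIN2 it was 0.58 (permutation p = 0.0266), and without HI7.5 replicate 4 it was 0.66 with an adjusted p of 0.0831. LPIN1, the other lipin, had r = 0.06 with PPARGC1A over all livers. Within diets this r differed in sign, at 0.20 in HI0, 0.62 in HI7.5 and -0.68 in HI15. The difference between the lipins was not tested.

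GPAM went with FASN, fatty acid synthase (r = 0.74, permutation p = 0.00091, adjusted p = 0.0129; rho = 0.80, p = 0.00054, adjusted p = 0.0121). Within diets r was 0.86 in HI0, 0.25 in HI7.5 and 0.79 in HI15. Without the 2 livers farthest from the median of GPAM it was 0.55 (permutation p = 0.0407). Without HI0 replicate 4 it was 0.67, with an adjusted p of 0.0593.

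PNPLA2 went with CPT1A, which admits fatty acids to mitochondria (r = 0.61, permutation p = 0.00552, adjusted p = 0.0414; rho = 0.74, p = 0.00241, adjusted p = 0.0217). It was opposed to THRSP (r = -0.69, permutation p = 0.0029, adjusted p = 0.0261; rho = -0.77, p = 0.00215, adjusted p = 0.0217). Without the 2 livers farthest from the median of PNPLA2, HI0 replicates 4 and 5, r was 0.49 (permutation p = 0.0350) and -0.59 (permutation p = 0.0232). These calls were the least stable, lost in 9 and in 6 of 18 omissions of a liver. Within diets r with THRSP was -0.83 in HI0 and -0.76 in HI15 but -0.13 in HI7.5. With the other fasting genes, PDK4 and PPARGC1A, r of PNPLA2 was 0.08 and 0.15. With FASN it was -0.67 (adjusted permutation p = 0.0596), and none of these pairs was called.

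CERS6, CDS1, AGPAT2, AGPAT3 and LPIN1 had no called pair with these 5 genes. Their largest r were 0.57 for LPIN1 with FASN (adjusted p = 0.0597) and 0.55 for AGPAT2 with PPARGC1A (adjusted p = 0.0980). With the run of title numbers subtracted, 1 of the 45 pairs remained, GPAM with FASN at r = 0.93. The other 5 kept their sign, with r of 0.72 for LPIN2 with PPARGC1A, -0.73 for PLIN2 with PPARGC1A, -0.67 for PLIN2 with PDK4, 0.57 for PNPLA2 with CPT1A and -0.64 for PNPLA2 with THRSP, and had adjusted p-values from 0.103 to 0.163. What the run stands for is not given, and its part in these relations was not tested.

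**Figure D4:**
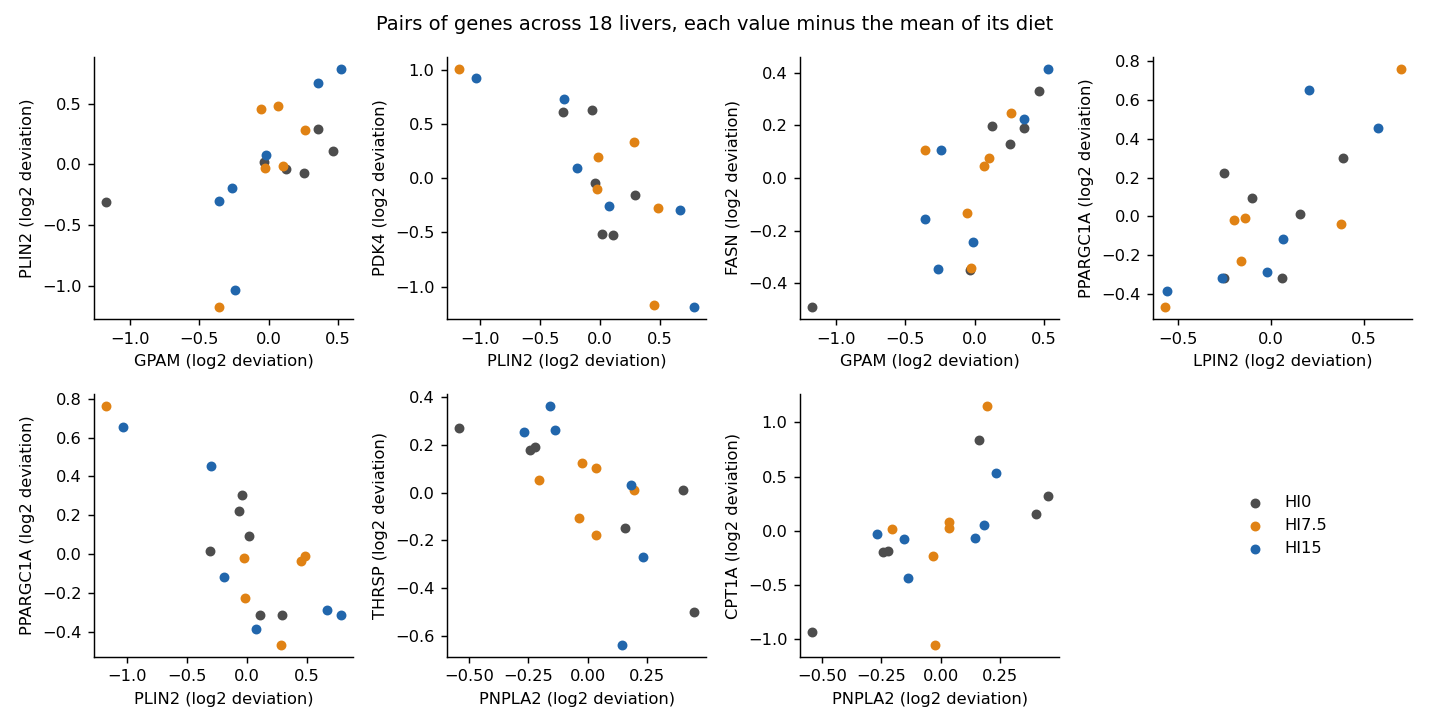
The 7 called pairs of genes across 18 livers, each log2 signal minus the mean of its diet, coloured by diet. GPAM rises with PLIN2 (r = 0.60) and PLIN2 falls with PDK4 (r = -0.81), and the lowest PLIN2 values in HI7.5 and HI15 stand beside the highest PDK4 values of those diets.

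**Figure D5:**
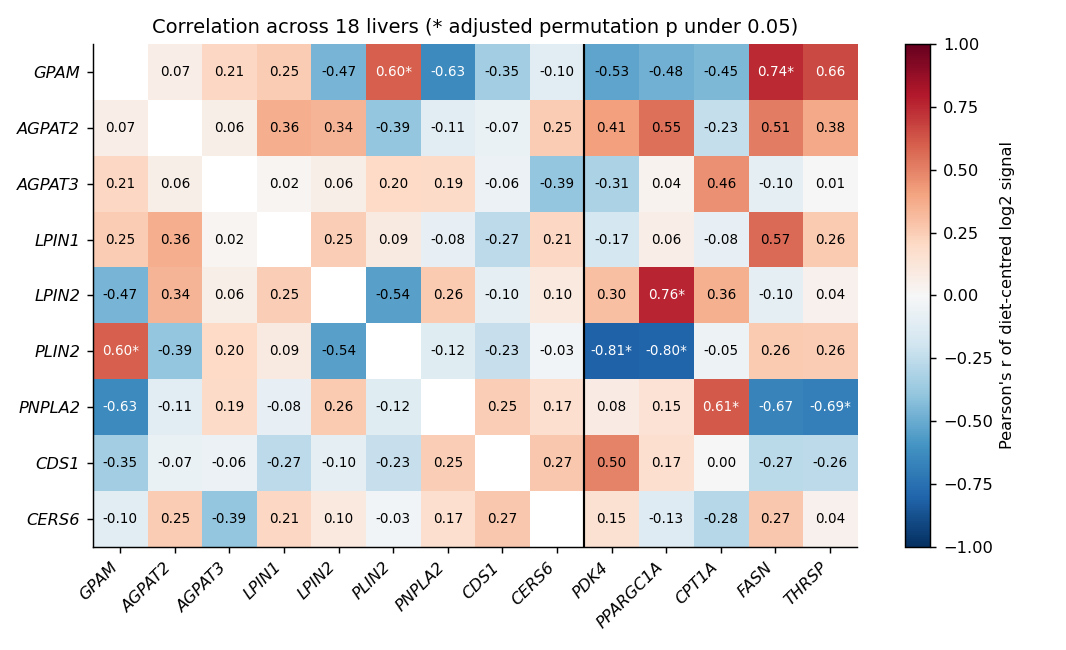
Pearson's r of diet-centred log2 signal over 18 livers for each of the 9 genes (rows) with the other members and with 5 feeding-state genes (columns, right of the line). Stars mark an adjusted permutation p under 0.05, 1 pair among the members and 6 with the feeding-state genes.

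The genes most like the 3 members of the widest spread were found over all 18 livers after diet means were subtracted, as a description without a test. For PLIN2 they were ANGPTL4, a secreted inhibitor of lipoprotein lipase, at r = 0.88, and CARS, a cysteinyl-tRNA synthetase, at 0.81. ANGPTL4 itself ran from 7.37 to 11.7 over the livers. For GPAM they were MTTP, which loads triglyceride onto lipoproteins, at r = 0.89, and ACSBG2, an acyl-CoA synthetase, at 0.86. Within each diet the r of these 4 genes with their member was 0.80 or higher.

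For CERS6 the most alike genes were HPRT1, of purine salvage, at r = 0.87, and CDH5, the cadherin of blood vessel cells, at 0.85. HPRT1 ran from 5.91 to 6.92, below every array median like CERS6, and CDH5 from 9.50 to 10.48. In HI0 and HI7.5 their r with CERS6 lay between 0.88 and 0.97, but in HI15, where CERS6 varied little, it was -0.18 for HPRT1 and 0.44 for CDH5.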

How the data were processed

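Liver RNA of 18 samples, 6 per diet, was measured on 1 single-colour Affymetrix array each. The submitters' processing notes name RMA and Affymetrix Expression Console 1.4 as the source of the deposited log2 values, 1 per probe set and array. RMA subtracts background, sets the arrays to a common distribution and combines the probes of a set, so a change in total RNA would not show; scanner files were not used here. The number of arrays limits the precision.

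Of 18226 probe sets, 12300 have 1 gene symbol in the platform annotation, and the brightest stood for its gene. The sources used here name no genome build, so no coordinates are given. All probe sets were fitted with 1 mean per diet in limma 3.58.1 under R 4.3.3 (lmFit, eBayes), two-sided, with Benjamini-Hochberg adjustment over all of them and calls at 0.05. Correlations used diet-centred values and 100000 permutations within diets, adjusted within each family of pairs; they and the fit were tested on simulated data. Correlation tests treat the 18 samples as independent.

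The members and lists were chosen with earlier results of these data known. Of the pathway list, the 3 genes with the smallest p per sublist in HI15 against HI0 and the first in each other comparison were named, with 2 genes per wide-spread member for likeness. The alternatives were other normalizations, filters, variance models and weights, the title number as a covariate or block, fits of 2 groups, an exact permutation test and omission of each sample. The F test of the title run and the omission of the livers numbered 22 to 24 were added after seeing the data. So were the sums of products by run for GPAM and PLIN2.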

Additional observations from a re-analysis of the deposited data

Results flagged for a closer look

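Of 27 groups of 6 livers, 2 held a value whose gap to its neighbour was large against the whole range of the group by Dixon's test; by chance about 1 group in 20 would. GPAM in HI0 replicate 4 was 10.91 in log2 signal, against 12.05 for the next lowest liver of that diet (ratio 0.695). PLIN2 in HI7.5 replicate 4 was 11.27, against 12.42 for the next lowest (ratio 0.693). The titles of these samples end in 22 and 23. Without HI0 replicate 4, GPAM differed between HI15 and HI0 by -0.43, and without HI7.5 replicate 4, PLIN2 differed between HI15 and HI7.5 by -0.60.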

How the results depend on the processing

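No diet comparison, F test or slope called a probe set under any alternative or omission (0 under each of 10 settings besides the omissions). Of 340 member differences and slopes under those settings, 326 kept their direction. PNPLA2 turned to 0.0139 (HI15 against HI0), 0.0329 (HI7.5 against HI0) and 0.00298 (slope) with array weights, to 0.00417 (HI7.5 against HI0) after array medians were subtracted, and without the livers numbered 22 to 24 to 0.108 (HI15 against HI0), 0.09 (HI7.5 against HI0), 0.018 (HI15 against HI7.5) and 0.072 (slope). LPIN2 in HI7.5 against HI0 turned to 0.10 with array weights. Without the same 3 livers, HI7.5 minus HI0 turned to -0.022 for GPAM, -0.056 for AGPAT2, -0.092 for LPIN1 and 0.05 for PLIN2, and HI15 minus HI7.5 to 0.018 for AGPAT3. The cause was not tested.

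Leaving out each liver in turn turned the sign of 13 of 36 member values at least once. In HI15 against HI0 these were AGPAT3 (-0.194 to 0.006) and PNPLA2 (-0.14 to 0.0547). In HI15 against HI7.5 they were AGPAT3 (-0.10 to 0.0147) and PNPLA2 (-0.075 to 0.025). In HI7.5 against HI0 they were GPAM (-0.093 to 0.24), AGPAT2 (-0.0187 to 0.0933), AGPAT3 (-0.15 to 0.0493), LPIN1 (-0.0673 to 0.18), LPIN2 (-0.17 to 0.0843), PLIN2 (-0.22 to 0.11) and PNPLA2 (-0.12 to 0.083). Of the slopes they were AGPAT3 (-0.13 to 0.00201) and PNPLA2 (-0.0937 to 0.0341). CERS6 and CDS1 kept their sign in all comparisons.

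Called pairs with feeding-state genes numbered 6. They numbered 9 by Spearman's rho and 10 with no diet mean subtracted. The count was 1 with the replicate block and 0 without the 2 livers farthest from the median. It was 2 without the livers numbered 22 to 24, and 3 (without HI7.5 replicate 4) to 9 in single omissions. Of the 6, only GPAM with FASN stayed called without the livers numbered 22 to 24 (adjusted permutation p = 0.0090). The rest of the 6 had adjusted permutation p-values from 0.0714 to 0.230 there, and the other called pair lay outside the 6. The 1 called pair of members became 0 with no diet mean subtracted, with the replicate block, without the 2 livers farthest from the median and without the livers numbered 22 to 24, and 0 to 1 in single omissions.

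The replicate block took the run of title numbers. Samples of the same run deviated together (r over 0.1) in 2 of 6 pairs for HI15 with HI0, 0 of 6 for HI7.5 with HI0 and 3 of 6 for HI15 with HI7.5, which does not meet the bar for treating a run as a pairing; what the run stands for is not given. With this block 0 probe sets were called, and PLIN2 in HI15 against HI0 was -0.49, with an unadjusted p under 0.05 and an adjusted limma p of 0.999. The array holds no background values, which limits what can be said of the dim probe sets of CERS6 and CDS1.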
